A study of Mus musculus with 24 samples.

Results

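Fat libraries that held lymph node transcripts were set against fat libraries that did not. The tissue was IWAT, inguinal white adipose tissue, a depot under the skin of the groin, and each library came from a piece of this depot of a separate male C57BL6/J mouse. The sets were drawn from a measured value: a library was placed with lymph node when Ms4a1, which encodes the B cell surface protein CD20, reached at least 25 raw CPM (counts-per-million of the library total, with no further scaling). By that rule 15 of 24 libraries held lymph node and 9 did not. The libraries with lymph node had at least 40.2, a median of 94.5 and at most 181 raw CPM of Ms4a1, and those without had at least 0.614, a median of 2.76 and at most 10.3. The library nearest to the threshold from above was elemental MR 6, at 40.2, and the nearest from below was oxidized casein MR 4, at 10.3.

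The mice had eaten 1 of 4 diets for 12 weeks from 5 weeks of age and were sampled at 4 months of age, fasted for 4 h, with 6 libraries per diet. The methionine-restricted (MR) diets held 0.17% methionine, supplied with elemental amino acids (elemental MR) or with casein whose methionine had been destroyed by oxidation and then partly returned (oxidized casein MR). The control diets held 0.86% methionine in elemental amino acids (elemental control) or in intact casein (casein control). No genotype was altered. Lymph node was present in 5 of 6 elemental MR, 4 of 6 elemental control, 2 of 6 oxidized casein MR and 4 of 6 casein control libraries. Presence did not differ detectably between MR diets (7 of 12) and control diets (8 of 12; Fisher's exact test, 2-sided, p = 1). The labels name the tissue IWAT and do not record whether the node was dissected away, and the series' design text speaks of the liver.

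**Figure D1:**
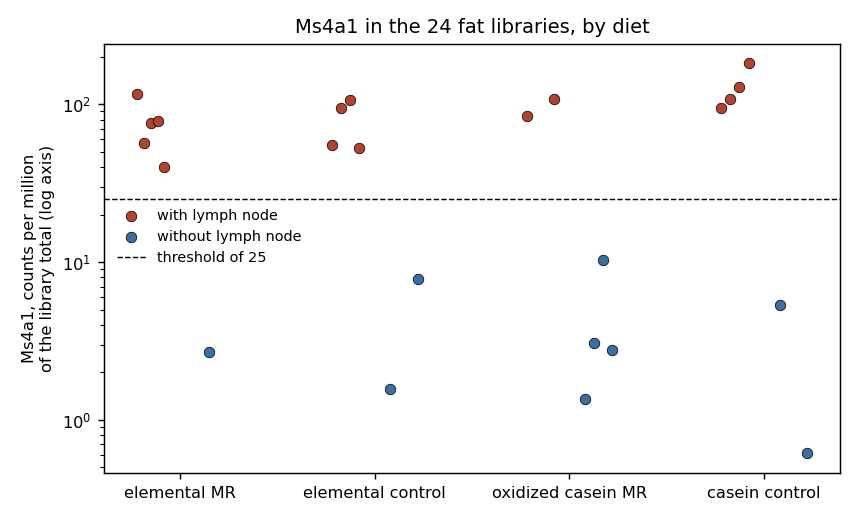
Raw CPM of Ms4a1 (log axis) in each of the 24 libraries, by diet; red points are libraries with lymph node, blue points those without, and the dashed line is the threshold of 25. The 15 libraries with lymph node sit between 40.2 and 181, and the 9 without between 0.614 and 10.3.

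A lymph node lies inside the inguinal fat pad and filters lymph draining from the skin of the lower body. B cells collect in its follicles and T cells in the surrounding cortex, each drawn there by chemokines that stromal cells release. Lymphocytes enter from the blood through high endothelial venules, whose endothelium carries sulfated sugars that catch passing lymphocytes, and they leave through lymphatic sinuses lined by macrophages.

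Sequences are shown for 3 genes that mark parts of the node: Cd79a, a signalling chain of the B cell receptor, Cd3g, a chain of the T cell receptor complex, and Glycam1, a mucin of high endothelial venules. Each run is the 250 bases before the gene's start in RefSeq (GRCm38.p6), written 5′ to 3′ along the gene's strand. Capitals mark GGAAGT on either strand, a core recognised by ETS-family transcription factors, which include regulators of lymphoid genes.
Cd79a, chr7:24897247-24897496, plus strand: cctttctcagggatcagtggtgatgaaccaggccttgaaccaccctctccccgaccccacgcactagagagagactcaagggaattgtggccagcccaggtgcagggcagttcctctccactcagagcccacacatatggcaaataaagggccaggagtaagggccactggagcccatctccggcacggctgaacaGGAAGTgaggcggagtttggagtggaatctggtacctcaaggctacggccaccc
Cd3g, chr9:44980432-44980681, minus strand: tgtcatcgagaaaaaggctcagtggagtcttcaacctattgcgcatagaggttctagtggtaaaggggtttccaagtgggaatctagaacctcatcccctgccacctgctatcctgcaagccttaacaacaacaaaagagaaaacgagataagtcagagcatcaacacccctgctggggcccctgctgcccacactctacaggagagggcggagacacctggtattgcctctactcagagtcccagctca
Glycam1, chr15:103565082-103565331, minus strand: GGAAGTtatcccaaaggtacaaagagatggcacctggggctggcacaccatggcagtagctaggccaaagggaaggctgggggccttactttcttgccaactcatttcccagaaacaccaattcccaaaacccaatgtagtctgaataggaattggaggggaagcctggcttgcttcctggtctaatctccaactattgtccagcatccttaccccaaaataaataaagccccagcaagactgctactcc
Cd79a and Glycam1 held 1 match each and Cd3g held none in these windows. Of 32851 RefSeq promoter windows of this length, 19.7% held a match, against 8 of 21 windows of the B cell list, 11 of 26 of the T cell list and 2 of 25 of the white adipocyte list. Several windows can belong to 1 gene, so these shares are a description of letters in the windows.

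Counts of the 2 sets were fitted together in edgeR with a mean for each diet and a term for the set, over 15176 genes. A gene is called higher or lower below when its Benjamini-Hochberg adjusted p over all of these genes was under 0.05. CPM below are reads-per-million after TMM scaling, except where raw CPM are named. A fold change is with over without lymph node on the log2 scale, given with its standard error. Because the sets were drawn from a B cell transcript, these values describe how the sets differ and are no test that a node was present. With lymph node, 3476 genes (22.9% of those tested) were higher and 3473 (22.9%) were lower. The changes were unequal in size: 429 genes were at least 8-fold higher, while 41 were at least 8-fold lower. Counts below of genes without overlap between the sets stand without the matching share of all 15176 genes, which is not given here. The first principal component held 43% of the variance of all libraries and separated the sets without overlap. The median share of a gene's variance was 15.9% for the set and 13.3% for the diet. The diet took more terms in the fit than the set, and the shares were not adjusted for that, so they are not directly comparable. In bulk tissue a larger number of cells of a type and more RNA per cell cannot be told apart.

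The 2 other markers, which the rule did not use, were compared between the sets. Cd79a is a B cell gene, as is Ms4a1, so its separation is no independent check of the label. Lymphocyte genes alone cannot tell a node from other tissue rich in lymphocytes. Cd79a stood at 3.02, 5.60 and 11.3 CPM (lowest, median and highest) in the 15 libraries with lymph node, against 0, 0.103 and 0.957 CPM in the 9 without. Cd3g stood at 7.29, 13.6 and 22.2 CPM with lymph node, against 0.191, 0.692 and 1.64 CPM without. Neither gene overlapped between the sets, and their fold changes were 4.76 (SE 0.40) and 4.35 (SE 0.26) on the log2 scale. B and T cell transcripts together, Ms4a1 among them, took 0.183% to 0.966% of the reads with lymph node (median 0.467%). Without lymph node they took 0.0168% to 0.0630% (median 0.0328%). Libraries without node thus still held reads of these lists. Most of their B list reads came from immunoglobulin genes: its median was 276 raw CPM, and 47.3 without them.

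All 26 genes of the B cell list were higher with lymph node, with a median of 4.57, and 25 of them did not overlap between the sets. Ms4a1, which drew the sets, is among the 26, and its own direction and separation were fixed by the rule. Cd22, an inhibitory B cell lectin, had 30.2, 53.2 and 99.5 CPM with lymph node, against 0.296, 1.47 and 4.10 CPM without. Its fold change was 5.04 (SE 0.36), and Pax5, the transcription factor that fixes B cell identity, had one of 5.03 (SE 0.47). The exception to the separation was Ighm, the heavy chain of IgM, at 208, 405 and 706 CPM with lymph node, against 43.2, 116 and 442 CPM without. Its fold change of 1.45 (SE 0.27) was the smallest of the list. Casein control 5 had the lowest Ms4a1 of all libraries and the most Ighm of those without node, 442 CPM.

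All 28 genes of the T cell list were higher and did not overlap between the sets, with a median of 4.17. Cd4, the co-receptor of helper T cells, had 19.3, 29.0 and 52.0 CPM with lymph node, against 0.457, 0.890 and 3.31 CPM without. Cd8a, the co-receptor of cytotoxic T cells, had 13.1, 25.3 and 48.8 CPM with lymph node, against 0.127, 0.863 and 3.28 CPM without. Foxp3, the transcription factor of regulatory T cells, had the largest fold change of the list, 5.33 (SE 0.53), and Cd247, the zeta chain of the receptor complex, the smallest, 2.02 (SE 0.16). Within the libraries with lymph node the summed B list ranged 5.73-fold and the summed T list 4.00-fold. With immunoglobulin genes left out, the B list ranged 5.01-fold and the ratio of T to B list counts 1.78-fold, over 0.531 to 0.943. With them kept in, the ratio ranged 2.53-fold, over 0.159 to 0.403. In both forms T and B transcripts stood in a narrower proportion than their amounts.

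Among 9 tested genes of natural killer and cytotoxic cells, 7 were higher and none was lower. Ccl5, a chemokine of cytotoxic lymphocytes, had 84.2, 137 and 210 CPM with lymph node, against 4.72, 9.91 and 19.1 CPM without, with no overlap. Nkg7, a cytotoxic granule protein, had a fold change of 2.62 (SE 0.21). Of 22 leukocyte signalling and cytoskeleton genes, 22 were higher, with a median of 2.87. They included Ptprc, the leukocyte common antigen CD45, at 127, 211 and 319 CPM with lymph node, against 16.6, 20.6 and 45.5 CPM without. Coro1a, an actin-binding protein of leukocytes, had a fold change of 3.11 (SE 0.22).

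Plasma cell genes varied widely among the libraries with node. Of 14 tested genes, 11 were higher and 1, Xbp1, was lower (-0.45, SE 0.09; 0.10 when scaled on white adipocyte genes). Ighg1, a heavy chain of IgG, had the largest fold change of the genes named here, 7.48 (SE 1.74), but stood at 0.151, 7.40 and 857 CPM with lymph node, against 0.0667, 0.294 and 3.15 CPM without. Its highest values were 857 CPM in elemental MR 1 and 491 CPM in oxidized casein MR 3, and the sets overlapped. Mzb1, a chaperone of antibody-secreting cells, was steadier at 7.08, 20.3 and 78.7 CPM with lymph node, against 0.254, 0.826 and 5.20 CPM without. Of 5 tested germinal centre genes, 2 were higher, Gcsam (3.01, SE 0.52) and Mybl1 (1.18, SE 0.40), while Fas was lower (-0.36, SE 0.11, and 0.21 when scaled on white adipocyte genes). These few calls stand beside 22.9% of all genes in each direction. Immunoglobulin constant regions are similar in sequence, and how reads were divided between Ighg genes is not known.

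The signals that organise the node were among the higher genes. Of 8 tested lymphoid chemokines and lymphotoxin ligands, 7 were higher and none was lower. Cxcl13, the chemokine that draws B cells into follicles, had 22.5, 40.5 and 56.9 CPM with lymph node, against 1.91, 3.15 and 7.74 CPM without. Ltb and Lta, which encode lymphotoxin chains that maintain lymphoid stroma, had fold changes of 4.60 (SE 0.39) and 4.72 (SE 0.36). Tnfsf11, which encodes the cytokine RANKL needed for lymph node formation, had 0.151, 1.02 and 2.47 CPM with lymph node, against 0, 0 and 0.147 CPM without.

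Of 12 homing and niche receptors, 9 were higher and 2 were lower. Ccr7, which guides T cells and dendritic cells into the node, had 20.1, 31.9 and 54.7 CPM with lymph node, against 0.381, 1.56 and 4.92 CPM without. Cxcr5, the receptor for Cxcl13, had a fold change of 4.83 (SE 0.30), and Cxcr4, the receptor for Cxcl12, one of 2.54 (SE 0.25). The lower members were Ltbr, the lymphotoxin receptor of stromal cells (-0.55, SE 0.09), and Tnfrsf1a, a TNF receptor (-0.51, SE 0.07). Both turned to 0.02 and 0.05 when libraries were scaled on white adipocyte genes. Ltbr had 53.9, 61.9 and 76.7 CPM with lymph node, against 76.7, 90.3 and 130 CPM without, so ligand and receptor moved in opposite directions under TMM scaling.

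High endothelial venule genes were higher in 6 of 8 tested, with a median of 2.83. Glycam1 had 64.8, 114 and 230 CPM with lymph node, against 0.254, 1.37 and 4.47 CPM without. This was 57.9-fold on the fitted scale (log2 5.86, SE 0.42) and, outside the immunoglobulin genes, the largest of the 12 higher genes chosen by size. Chst4, a sulfotransferase that acts on these sugars, had 0.572, 2.26 and 4.95 CPM with lymph node, against 0, 0 and 0.467 CPM without. Madcam1, an addressin bound by lymphocyte integrin, and Fut7, a fucosyltransferase of the same sugars, had fold changes of 4.29 (SE 0.51) and 3.11 (SE 0.39).

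Of 9 tested lymphatic endothelial genes, 5 were higher and 1 was lower. Stab2, a scavenger receptor of sinus endothelium, had 6.37, 8.72 and 14.4 CPM with lymph node, against 0.206, 0.519 and 1.40 CPM without. Prox1, the transcription factor of lymphatic endothelium, had 6.94, 11.3 and 20.2 CPM with lymph node, against 0.827, 1.73 and 3.97 CPM without. Lyve1, a hyaluronan receptor that macrophages of fat also carry, was higher by 1.12 (SE 0.22) with sets that overlapped.

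Dendritic cell and node macrophage genes were higher in 12 of 15, with none lower. Marco, a scavenger receptor of macrophages that line lymphoid sinuses, had 43.4, 65.9 and 119 CPM with lymph node, against 0.762, 2.59 and 3.83 CPM without. Ccl22, a chemokine of mature dendritic cells, had a fold change of 4.55 (SE 0.28), and Flt3, the growth factor receptor of dendritic cell lineages, one of 3.90 (SE 0.33). Il22ra2, which encodes a soluble receptor that binds IL-22, was among the 12 higher genes chosen by size, at 12.9, 21.5 and 31.4 CPM with lymph node, against 0.127, 0.692 and 1.18 CPM without. All 10 MHC class II genes were higher, with a median of 1.69. H2-Ob, part of the B cell modulator of peptide loading, had a fold change of 4.57 (SE 0.38), and H2-Aa, the class II alpha chain that many cells of fat also make, one of 1.57 (SE 0.18).

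Of 20 cell division genes, 15 were higher and none was lower, with a median of 1.38. Top2a, the DNA topoisomerase of dividing cells, had 13.2, 26.5 and 40.5 CPM with lymph node, against 3.61, 6.94 and 12.8 CPM without. Mki67 had a fold change of 1.64 (SE 0.29). All 30 cytosolic ribosomal protein genes were higher, with a median of 0.75, and 16 did not overlap between the sets. Rps24, a small subunit protein, had 924, 1330 and 2036 CPM with lymph node, against 428, 635 and 750 CPM without. Ribosomal protein genes have many processed copies in the genome, and the treatment of reads that match several copies is not known.

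**Figure D2:**
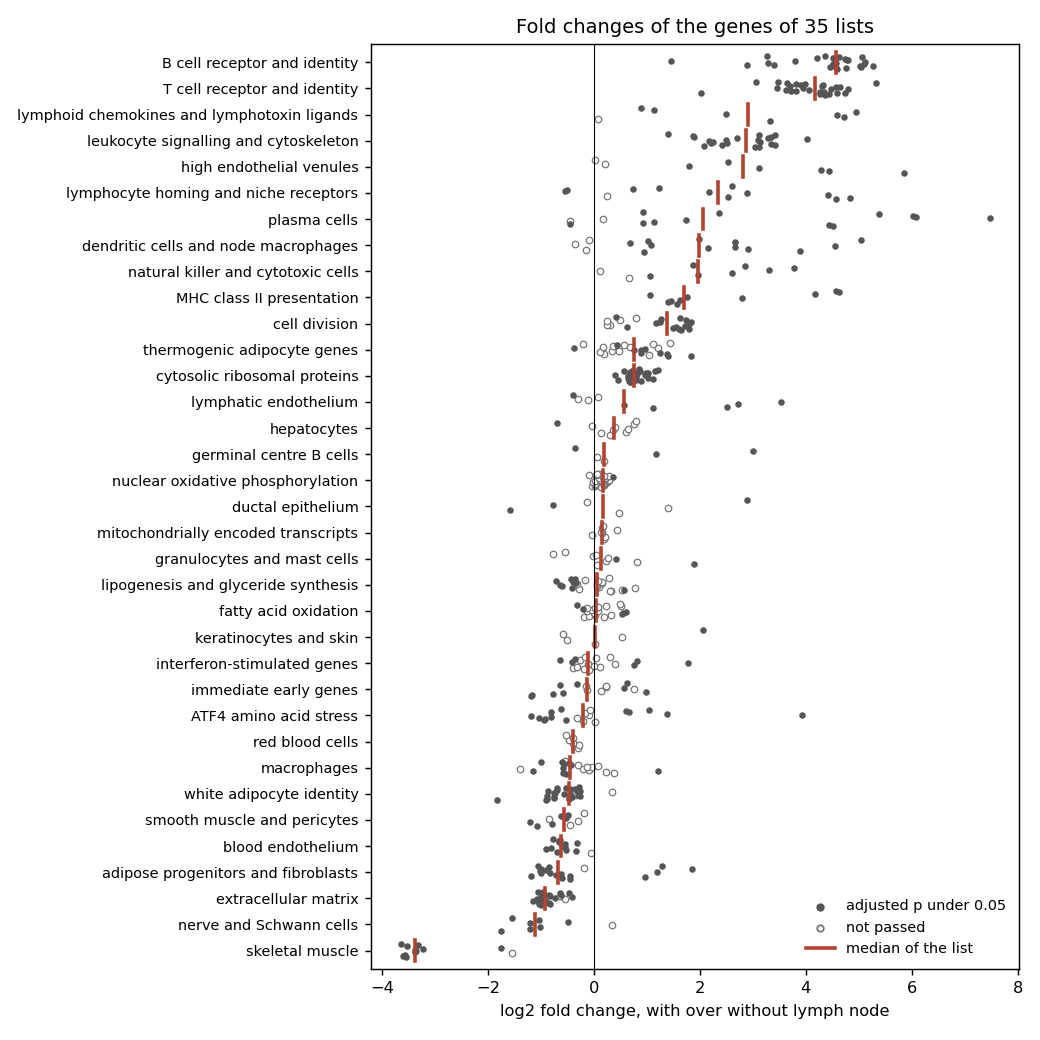
Log2 fold change, with over without lymph node, of every tested gene in 35 lists; filled points passed an adjusted p of 0.05 in edgeR, open points did not, and red bars are list medians. B and T cell lists lie at medians of 4.57 and 4.17, and skeletal muscle lies lowest at -3.37.

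Genes of white fat were lower with lymph node on this scale. Of 27 white adipocyte genes, 25 were lower and none was higher, with a median of -0.47. Adipoq, the adipokine adiponectin, had 1591, 2195 and 3161 CPM with lymph node, against 3441, 4004 and 5208 CPM without, with no overlap and a fold change of -0.90 (SE 0.11). Lep, the hormone leptin, had 36.2, 105 and 472 CPM with lymph node, against 189, 295 and 2195 CPM without, and its fold change was -1.82 (SE 0.31). Plin1, the lipid droplet coat protein, was lower by a smaller amount (-0.47, SE 0.08), as was Fabp4, the adipocyte fatty acid binding protein (-0.46, SE 0.12). Scaling the libraries on the geometric mean of the white adipocyte list raised the median fold change of all genes by more than 0.1, to 0.56, and under it 65.9% of genes were higher and 3.58% lower. On that scale Plin1 (0.10) and Fabp4 (0.10) changed direction, while Adipoq (-0.34, SE 0.08) and Lep (-1.24, SE 0.28) were still called lower. All of these genes belong to the list that set the scale, so a change of direction in some members follows from the scaling itself.

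Of 23 tested thermogenic genes, 13 did not pass, 9 were higher, beside 22.9% of all genes, and 1, Prdm16, was lower (-0.37, SE 0.11; 0.20 when scaled on white adipocyte genes). Scaled on white adipocyte genes, 21 of the 23 were higher and none was lower, beside 65.9% higher of all genes. Ucp1, the uncoupling protein of beige and brown fat, had 36.4, 1211 and 2619 CPM with lymph node, against 7.12, 225 and 1791 CPM without, with a fold change of 1.84 (SE 0.68). Cidea, a lipid droplet protein of thermogenic fat, had 82.7, 715 and 1264 CPM with lymph node, against 23.7, 313 and 801 CPM without (1.40, SE 0.42). These sets overlapped, and the diets pulled the values apart within each set. In the MR diets Ucp1 had 1261, 1467 and 2619 CPM in 7 libraries with lymph node, against 99.4, 993 and 1791 CPM in 5 without. In the control diets it had 36.4, 352 and 1211 CPM in 8 libraries with lymph node, against 7.12, 18.0 and 225 CPM in 4 without. In separate fits 11 thermogenic genes were higher with lymph node in the control diets, beside 17.1% of all genes. None was higher in the MR diets, beside 15.8% of all genes. The MR libraries with lymph node were 5 elemental MR and 2 oxidized casein MR, and those without were 1 and 4. The difference of the Ucp1 effect between diet classes did not pass over all genes (-2.47, SE 1.09, adjusted p = 0.850, edgeR). Without the 2 libraries richest in muscle transcripts, 2 thermogenic genes stayed past the threshold in the higher direction, and Ucp1 did not (adjusted p = 0.0531, edgeR), nor did it without elemental control 2, casein control 4 or casein control 5 (adjusted p at most 0.0778, edgeR).

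Genes of fuel metabolism mostly did not pass under TMM scaling, where 22.9% of all genes were called in each direction. Most were higher when scaled on white adipocyte genes, as were 65.9% of all genes. Of 24 tested lipogenesis and glyceride synthesis genes, 8 were lower and 1 was higher, against 14 higher and none lower with that scaling. Dgat2, which closes triglyceride synthesis, was lower (-0.71, SE 0.19), as was Srebf1, a regulator of lipogenic genes (-0.59, SE 0.16). Acacb, the mitochondrial acetyl-CoA carboxylase, was the higher one (0.57, SE 0.22). Of 20 fatty acid oxidation genes, 3 were higher and 2 lower, the higher ones being Hadha, Hadhb and Acadvl at 0.55, 0.61 and 0.54. With the scaling on white adipocyte genes all 20 were higher. Under TMM none of these 3, nor Acacb, passed without the muscle-rich libraries. Of 30 nuclear oxidative phosphorylation genes 1 passed, and of 8 tested mitochondrially encoded genes none did, against 29 and 7 higher when scaled on white adipocyte genes. The share of reads from mitochondrially encoded genes was 27.7% ± 5.72 with lymph node (SD, n = 15), against 24.4% ± 6.76 without (SD, n = 9). The difference did not pass an exact permutation test within diets (2-sided, p = 0.0673, adjusted over 4 tests p = 0.269), although it did without casein control 6 (exact permutation p = 0.0454) or oxidized casein MR 1 (exact permutation p = 0.00696), both unadjusted.

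Stromal and vascular genes were mostly lower under TMM scaling. Of 24 extracellular matrix genes, 22 were lower, with a median of -0.92, and 15 were still lower when scaled on white adipocyte genes. Col6a1, a collagen of the matrix around adipocytes, had 44.5, 56.3 and 97.9 CPM with lymph node, against 74.3, 115 and 197 CPM without (-1.15, SE 0.13). Col1a1 and Col3a1, chains of fibrillar collagens, were lower by similar amounts, with fold changes of -0.99 (SE 0.15) and -1.03 (SE 0.15). Of 14 blood endothelial genes, 13 were lower with a median of -0.62, against 2 higher and 1 lower with a median of -0.07 when scaled on white adipocyte genes. Tek, the angiopoietin receptor, had 6.03, 8.08 and 11.0 CPM with lymph node, against 12.3, 14.4 and 16.4 CPM without, with no overlap. Of 10 smooth muscle and pericyte genes, 6 were lower and none was higher, with a median of -0.57, against 2 higher and 1 lower with a median of -0.02 under that scaling.

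Progenitor and fibroblast genes split. Of 18 tested, 13 were lower under TMM scaling and 6 when scaled on white adipocyte genes, among them Pi16, a marker of early adipose progenitors (-1.19, SE 0.27). The other 4 that passed were higher: Thy1 (1.86, SE 0.20), Icam1 (1.29, SE 0.14), Cd55 (1.19, SE 0.13) and Dpp4 (0.97, SE 0.20). As background, each of these 4 is also made by lymphoid cells or lymphoid stroma in mice. Which cells made them here was not tested. Thy1, the surface protein CD90, had 50.0, 93.4 and 133 CPM with lymph node, against 12.4, 25.9 and 39.4 CPM without.

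Macrophage genes also divided. Of 20 tested, 9 were lower and 1 was higher, with a median of -0.44, against 8 higher and 2 lower with a median of 0.13 when scaled on white adipocyte genes. Cd163, the haemoglobin scavenger receptor of resident macrophages, had 5.00, 12.5 and 19.5 CPM with lymph node, against 10.0, 32.1 and 49.7 CPM without (-1.14, SE 0.26). Mrc1, the mannose receptor, was lower (-0.58, SE 0.16; 0.01 when scaled on white adipocyte genes). Lyz2, lysozyme of myeloid cells, was the higher one at 205, 365 and 441 CPM with lymph node, against 73.3, 157 and 290 CPM without. Of 10 tested granulocyte and mast cell genes, 2 were higher, with S100a9 at 1.89 (SE 0.41). Of all genes, 22.9% were called in each direction under TMM scaling, so the granulocyte count is near that share.

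**Figure D3:**
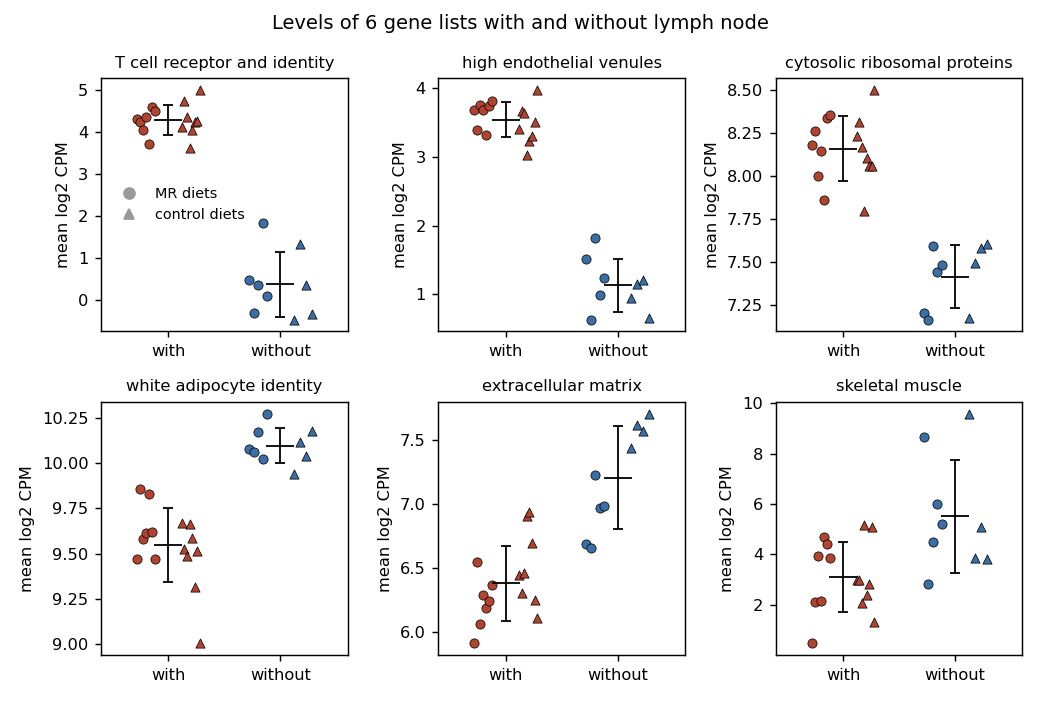
Mean log2 CPM of 6 gene lists in each library with (red) and without (blue) lymph node; circles are MR diets, triangles control diets, and bars show the mean and SD of 15 libraries with and 9 without. The T cell and venule lists separate the sets upwards and the white adipocyte list separates them downwards, while skeletal muscle levels overlap.

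Skeletal muscle and nerve transcripts moved with the sets as well. Of 12 skeletal muscle genes, 11 were lower with lymph node, with a median of -3.37. Acta1, skeletal actin, had 2.83, 20.6 and 81.0 CPM with lymph node, against 12.3, 80.7 and 2946 CPM without, and its high values lay in elemental control 2 (2946 CPM) and elemental MR 2 (1239 CPM). The summed list ranged over 93.1 to 595 CPM with lymph node, against 211 to 15135 CPM without. The 12 lower genes chosen by size included Apobec2 (-5.02, SE 0.97), Smpx (-4.91, SE 0.96), Myoz1 (-3.64, SE 0.86), Myh1 (-3.61, SE 0.92) and Atp2a1 (-3.65, SE 0.95), all genes known from striated muscle. Without those 2 libraries none of these 12 passed, the count of lower muscle genes was 1 of 12, and the median was -0.80. All 12 higher genes chosen by size passed without them.

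Of 8 nerve and Schwann cell genes, 7 were lower, with a median of -1.12 that was -0.84 without the 2 muscle-rich libraries. Prx, a Schwann cell protein, and Sox10, the Schwann cell transcription factor, had fold changes of -1.54 (SE 0.26) and -1.21 (SE 0.23). The summed list ranged over 159 to 428 CPM with lymph node, against 443 to 882 CPM without, and did not overlap. The part of muscle and nerve tissue in the lower genes was not tested beyond leaving out those 2 libraries. Keratinocyte genes gave 1 higher of 5 tested, and ductal epithelium genes 1 higher and 2 lower of 6. Hepatocyte genes gave 1 lower and no higher gene of 10, and red blood cell genes gave none of 6. These small counts stand beside 22.9% of all genes called in each direction. Hepatocyte genes ranged from 339 to 11130 summed CPM with lymph node, against 1168 to 2459 without.

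Stress and interferon lists held genes called in both directions under TMM scaling, beside 22.9% of all genes called in each. Of 19 tested genes of the ATF4 amino acid stress response, 5 were higher and 8 lower, against 8 higher and 3 lower when scaled on white adipocyte genes. Slc7a11, the cystine transporter, was higher by 3.93 (SE 0.55), at 1.98, 4.01 and 10.6 CPM with lymph node, against 0, 0.133 and 1.33 CPM without. Mthfd2, a mitochondrial folate enzyme, was also higher (1.05, SE 0.13). The serine synthesis enzymes Psat1 (-0.94, SE 0.14) and Phgdh (-0.93, SE 0.12) were lower, as was Asns, asparagine synthetase (-0.52, SE 0.10; 0.04 when scaled on white adipocyte genes). Of 18 interferon-stimulated genes, 3 were higher and 3 lower, with Mx1 (1.79, SE 0.32) on the higher side and Ifi27l2a (-0.64, SE 0.13) on the lower. Scaled on white adipocyte genes, 11 were higher and none lower. Of 15 immediate early genes, 3 were higher and 6 lower, with Junb at 0.99 (SE 0.17) and Fos at -1.16 (SE 0.27). With that scaling 7 were higher and 1 lower.

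The same contrast was then fitted in the control diets alone and in the MR diets alone, which share no library. In the control diets 17.1% of genes were higher and 14.6% lower, and in the MR diets 15.8% were higher and 13.8% lower. Of 13699 genes tested in both, 1737 were higher in both, which is 80.1% of the MR calls and 73.8% of the control calls. Lower in both were 1210 genes, 63.8% of the MR calls and 58.7% of the control calls. No gene called higher in the control diets was called lower in the MR diets, and 3 genes lower in the control diets were higher in the MR diets. All 26 B cell genes, Ms4a1 among them, and all 28 T cell genes were higher in either class of diets. Skeletal muscle genes were lower in 9 of 12 in the MR diets and in 1 of 12 in the control diets.

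Diet was not used to draw the sets, so whether the effect of methionine restriction differs with lymph node was tested directly. In edgeR 1 gene of 15176 (0.00659%) passed, and 865 had an unadjusted p under 0.05. DESeq2 called 6 and limma voom 1. The gene was Il1r2, the decoy receptor that binds interleukin 1 without signalling. Without lymph node Il1r2 had 1.63, 2.42 and 4.14 CPM in 5 MR libraries, against 8.77, 14.0 and 16.0 CPM in 4 control libraries. With lymph node it had 3.62, 4.52 and 8.20 CPM in 7 MR libraries, against 2.80, 5.35 and 6.25 CPM in 8 control libraries. The diets did not overlap without lymph node and overlapped with it. The MR effect was 0.11 (SE 0.21) with lymph node and -2.40 (SE 0.27) without, a difference of 2.51 (SE 0.35, adjusted p = 0.00186, edgeR). It passed in 23 of 24 fits that left out a library, the exception being without oxidized casein MR 3 (2.23, adjusted p = 0.0750, edgeR). In simulated counts the test of the difference recovered 30% of genes given a log2 difference of 1, and 77% of those given 2. Real differences of such sizes can therefore be missed. The counts were simulated after the difference between the sets had been averaged out within each diet, so recovery in the real counts may differ.

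The next 4 genes by p did not pass (adjusted p = 0.194 in edgeR for each). Capg, an actin-capping protein of macrophages, had a difference of 1.34 (SE 0.26), and in libraries without lymph node it had 5.77, 6.40 and 8.75 CPM with MR, against 11.6, 15.7 and 22.6 CPM with control diets. Ctsh, a lysosomal protease, had a difference of 0.88 (SE 0.18). Slc16a9, a monocarboxylate transporter family member, and Wfdc17, a secreted protein of macrophages, had differences of 1.43 (SE 0.30) and 1.84 (SE 0.39). The difference did not pass for Lep (0.54, SE 0.63, adjusted p = 0.923) or Adipoq (0.26, SE 0.22, adjusted p = 0.900) in edgeR.

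**Figure D4:**
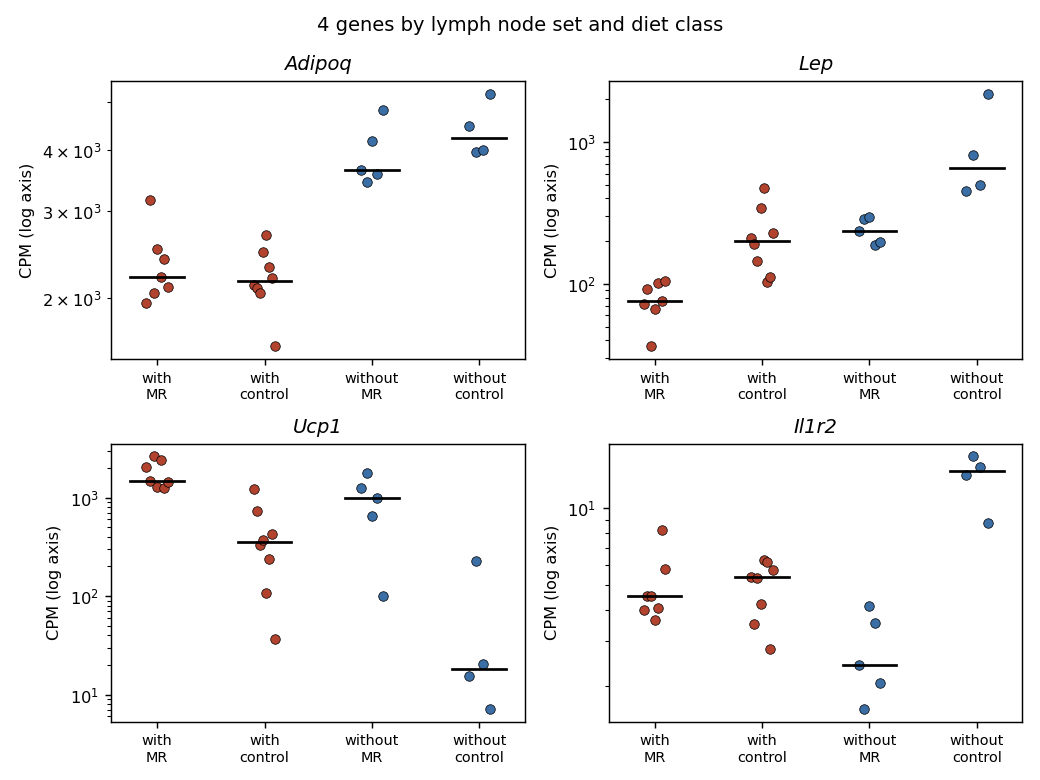
CPM (log axis) of Adipoq, Lep, Ucp1 and Il1r2 in each library, by lymph node (red with, blue without) and diet class, with lines at the medians. Adipoq separates by lymph node, Lep medians are lower and Ucp1 medians higher with lymph node in each diet class, and Il1r2 is highest in the 4 control libraries without lymph node, at 8.77 to 16.0 CPM.

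Summed B and T list reads of the libraries with lymph node did not differ detectably with diet. The sum holds Ms4a1, by which these libraries were picked. It also leans on immunoglobulin genes: the B list had a median of 3719 raw CPM, and 1251 without them. How far the sum follows the amount of node was not tested. In libraries with lymph node, B and T list counts summed to 1832, 3377 and 6159 raw CPM in 7 MR libraries, against 2195, 4767 and 9657 in 8 control libraries. The difference of mean log2 values was -0.32 (exact permutation test within protein sources, 2-sided, p = 0.619, adjusted over 4 tests p = 0.825). Library totals were 8023612 to 17129341 reads with lymph node, against 7468336 to 19868913 without, and did not differ detectably (difference of mean log2 totals -0.07, exact permutation test within diets, 2-sided, p = 0.196, adjusted p = 0.393).

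Within the 15 libraries with lymph node, Glycam1 stood higher in the MR diets relative to lymphocyte transcripts. This comparison was chosen after the values had been seen. Glycam1 counts per Ms4a1 count were 1.64, 1.92 and 2.04 in 7 MR libraries, against 0.736, 0.882 and 1.58 in 8 control libraries, with no overlap. Ms4a1, the divisor, is also the transcript by which these libraries were picked. Undivided, Glycam1 overlapped between the diets, at 67.8, 160 and 221 raw CPM with MR, against 63.5, 89.1 and 164 with control diets. In a fit with protein source as a term and libraries scaled on the B and T lists, 12 of 15644 genes (0.0767%) passed for MR over control, and 863 had an unadjusted p under 0.05. TMM scaling called 328 genes in the same libraries, and leaving out 1 library under the B and T scaling gave 2 to 21 calls. Of the 429 genes at least 8-fold higher with lymph node, Glycam1 was the single one called (log2 0.93, SE 0.19, adjusted p = 0.0476, edgeR), and the median of the 429 was -0.01. For Glycam1 TMM scaling gave 0.89 (SE 0.21, adjusted p = 0.0390, edgeR). The call held in 4 of 15 fits that left out a library and was lost in 11, with fold changes from 0.85 to 0.99 and adjusted p from 0.0311 to 0.278 in edgeR, the last without oxidized casein MR 5.

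**Figure D5:**
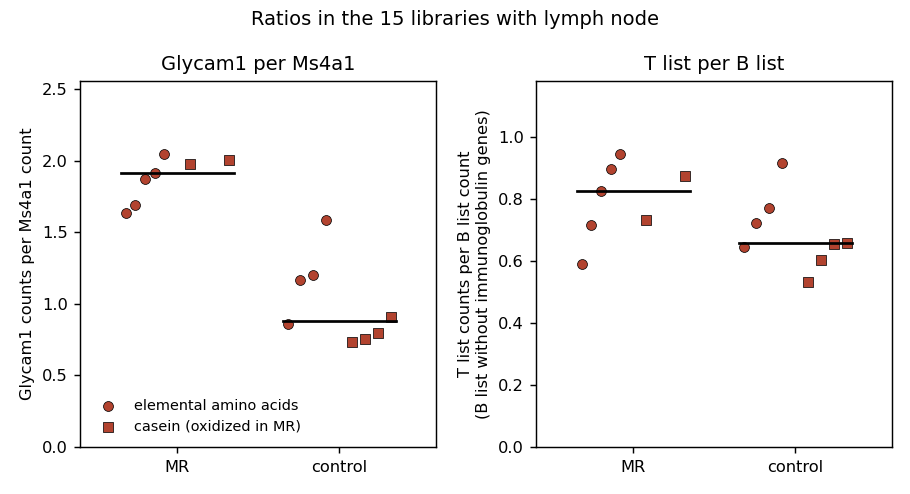
Glycam1 counts per Ms4a1 count (left) and T list counts per B list count (right) in the 15 libraries with lymph node, by MR and control diets. The B list here leaves out immunoglobulin genes. Circles are elemental amino acid diets, squares casein diets, and lines are medians. Glycam1 per Ms4a1 is at least 1.64 in the MR libraries and at most 1.58 in the control libraries, while the T to B ratio overlaps.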

How the data were processed

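IWAT of 24 mice was profiled by QuantSeq 3′ mRNA sequencing with 50 bp reads, per the labels. The authors deposited raw counts for 16821 genes, and a signal table whose values are those counts over each library's size factor (largest relative deviation 5.3e-15). The deposited signal table was not tested. DESeq2 1.18.1, R 3.4.3 and the builds GRCm38 and mm10 are listed in the submitters' processing notes. Which aligner and counter were run, and with which strand option, is not given in the sources used here, so overlapping antisense genes cannot be told apart. Symbols came from GENCODE M21 for 16771 genes.

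The sets, the gene lists and the tests were chosen with earlier results of these data known. Sets followed raw CPM of Ms4a1, at a threshold of 25. Counts were fitted in R 4.3.3 with edgeR 4.0.16: filterByExpr by diet left 15176 genes, then TMM scaling, robust quasi-likelihood fits, a mean per diet and a term for the set. The test of methionine restriction by set added their product. P-values were adjusted by Benjamini-Hochberg over all genes. Standard errors are the fold change over the root of F. Single values were compared by exact permutation within diets, or within protein sources, 2-sided about the permutation mean, and 4 such tests including Fisher's were adjusted together. The alternatives were DESeq2 1.42.0, limma 3.58.1 voom, other scalings, no filter, other thresholds, subsets of diets and leaving out libraries. The fit of restriction within libraries with lymph node was added after the data were seen. Fits were tested on simulated counts.

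Genes named in the text are the 3 markers Ms4a1, Cd79a and Cd3g, members of 35 lists, the 12 largest called changes each way among genes with a symbol, an average of at least 2 log2 CPM and 1 sign in all 4 diets, and the 5 of smallest p in the test of the difference. Some list genes were not in the table and were not analysed here, among them Ccl19 and Ccl21a. Library totals ran from 7468336 to 19868913 reads. Reads carry no molecular identifiers, so precision rests on the spread between mice. Sequencing batches are not given in the labels. No 2 libraries of a diet agreed within sampling noise. Some genes are not reported here.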

Additional observations from a re-analysis of the deposited data

Results flagged for a closer look

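Among the 9 libraries without lymph node, the mean log2 CPM of ductal epithelium genes was 1.94 in elemental control 2, far above the others, and that of immediate early genes was 4.21 in casein control 5. Of 38 such measures, 2 stood out in this way, and chance alone singles out about 5% of groups. Elemental control 2 was also the library with the most Acta1, and casein control 5 the one with the least Ms4a1; the part of either in these values was not tested. The effect of methionine restriction on Il1r2 differed between libraries with and without lymph node by 2.51 on the log2 scale (SE 0.35, adjusted p = 0.00186, edgeR), with no overlap of the diets in the 9 libraries without it.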

How the results depend on the processing

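The numbers of genes called with lymph node, 3476 higher and 3473 lower, stayed within 1.5 times under median-of-ratios factors, library totals alone (3873 higher, 2814 lower), DESeq2, voom, no filter, thresholds of 10 or 50 raw CPM of Ms4a1, no diet term and without the 2 libraries with the most Acta1. Leaving out single libraries gave 3154 to 3525 higher and 3147 to 3728 lower. Scaling on white adipocyte genes gave 9995 higher and 544 lower, the control diets alone 2505 and 2129, and the MR diets alone 2171 and 1904, the last 2 with fewer samples; for the scaling the cause was not tested. Of the genes called, 94.8% were higher under that scaling, against 50.0% under TMM. It also turned the median of the white adipocyte list to 0.10, and the fold changes of Plin1 to 0.10, Fabp4 to 0.10, Fas to 0.21, Xbp1 to 0.10, Ltbr to 0.020, Tnfrsf1a to 0.055, Prdm16 to 0.20, Mrc1 to 0.0077 and Asns to 0.044. The white adipocyte list, with Plin1 and Fabp4 in it, set that scale, so the shift of its median follows from the scaling itself. Among 125 named genes, leaving out 1 library reversed none, ended 37 and added 1 of 3000 values, mostly for Acacb, Elovl3 and Ucp1. Leaving out both muscle-rich libraries ended 22 calls. Genes whose restriction effect differed between the sets numbered 6 in DESeq2, and 0 (without oxidized casein MR 3) to 2 (without casein control 1) with 1 library left out. Restriction within libraries with lymph node called 328 genes under TMM, against 12 when scaled on B and T genes, and 2 to 21 with 1 library left out; the cause was not tested. The difference in mean log2 library totals ran from -0.16 to 0.018, positive without elemental control 2. That in mitochondrial share ran from 2.16 to 4.75 percentage points, and that in log2 lymphocyte reads from -0.47 to -0.15. Presence of lymph node by diet gave Fisher's exact p = 0.680 at the threshold of 50. No paired analysis was possible because the labels number mice individually and the diets share no numbers.

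The sets rest on a single transcript and on pieces of pad whose size is not given here. A set of 1 elemental MR library without lymph node, and 2 in either control, limits any contrast within a diet. Low counts such as those of Tnfsf11 or Chst4 without lymph node give uncertain fold changes.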
